A study of Drosophila melanogaster with 2 samples.

Results

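The leg and appendage axis genes are 8 transcription factor genes of Drosophila melanogaster that pattern the limb between body wall and tip. They are homothorax (hth), extradenticle (exd), teashirt (tsh), dachshund (dac), Distal-less (Dll), aristaless (al), bric a brac 1 (bab1) and bric a brac 2 (bab2). They were taken by name from 13945 annotated protein-coding genes, and each was examined over its annotated span plus 5 kb on each side. Taiman (tai) is a bHLH-PAS coactivator of the ecdysone receptor. The study mapped its occupancy by ChIP-seq with an antibody against GFP in a transgenic line that carries a tai-eGFP fusion with GFP at the C terminus. There was 1 group, with no untreated or untagged samples among those analysed here. It comprised biological replicates 1 and 3, each from its own biosample of that line: whole wandering larvae of the third instar, males and females pooled, age not known. One label field names tai as the antibody's target. Both replicates were called against the same control alignment, so that background regions may be shared between them. With 1 group and 2 replicates no test of a difference was possible, and every comparison that follows is a description. The lists hold no expression values, so the labelled whole-larva source could not be checked against marker genes, and signal from many cells cannot be told apart from strong signal in a few.

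The Drosophila leg is patterned along its proximal to distal axis in the imaginal disc, where Wingless and Decapentaplegic set up nested domains of transcription factors. Hth and the zinc finger protein Tsh mark the proximal domain. Exd is the homeodomain partner that Hth brings into the nucleus, and both are of the TALE class. Dac marks the medial domain and Dll, a homeodomain protein, the distal one. The paired-type homeodomain protein Al acts at the tip, and the BTB proteins Bab1 and Bab2 act in the tarsus. Ecdysone, the steroid hormone whose receptor Taiman assists, drives the eversion and shaping of the leg disc at the onset of metamorphosis, which follows the wandering stage.

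The deposited peak lists on the dm6 build held 29999 regions for replicate 1, 30000 for replicate 3, 30000 for the pooled alignments of both and 2591 in the IDR list. The IDR (irreproducible discovery rate) list is meant to hold peaks that agree between replicates, and its 2591 regions were the strongest of the pooled list by signal, with none passed over. The signal is the authors' own enrichment value for each region. Its scale is not stated in the sources used here, so it was compared only within a list. A rank of 1 is the strongest region of a list, and the top of a replicate means its 2591 strongest regions. Sequencing depth is unknown. The 8 gene windows together covered 375.7 kb and held 6 IDR summits, 129 pooled summits, 131 summits of replicate 1 and 118 of replicate 3.

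The 6 IDR summits lay at 3 genes: dac had 1, hth had 3 and bab1 had 2. No IDR summit lay at exd, tsh, Dll, al or bab2. The following windows show where signal peaked at those 3 genes: 100 bases on each side of the strongest IDR summit whose window held no annotated exon, read from RefSeq's copy of the assembly on the plus strand, with matches to the motifs searched in capitals. They are chr2L:16486447-16486647 at dac (signal 195.9), chr3R:10579738-10579938 at hth (signal 73.35) and chr3L:1093479-1093679 at bab1 (signal 84.29).
dac: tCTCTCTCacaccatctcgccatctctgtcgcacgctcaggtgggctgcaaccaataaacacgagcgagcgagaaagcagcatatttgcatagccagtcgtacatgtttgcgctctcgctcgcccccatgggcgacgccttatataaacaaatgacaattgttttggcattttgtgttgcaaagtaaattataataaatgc
hth: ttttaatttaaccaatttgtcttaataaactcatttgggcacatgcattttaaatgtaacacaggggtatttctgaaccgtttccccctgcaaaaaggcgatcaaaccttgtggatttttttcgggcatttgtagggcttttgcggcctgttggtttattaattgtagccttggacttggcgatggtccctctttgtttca
bab1: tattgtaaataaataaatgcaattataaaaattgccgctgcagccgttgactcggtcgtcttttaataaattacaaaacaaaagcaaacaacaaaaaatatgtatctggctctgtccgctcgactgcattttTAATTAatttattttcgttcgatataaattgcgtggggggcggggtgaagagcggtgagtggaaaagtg
The dac window lies between genes just upstream of dac, and its capitals mark 1 copy of the GAGA element GAGAGAG, read on the minus strand, which starts 99 bases left of the summit. The hth and bab1 windows are intronic. The bab1 window holds 1 copy of the homeodomain core TAATTA, starting 32 bases right of the summit, and the hth window holds none of the 9 motifs searched.

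**Figure D1:**
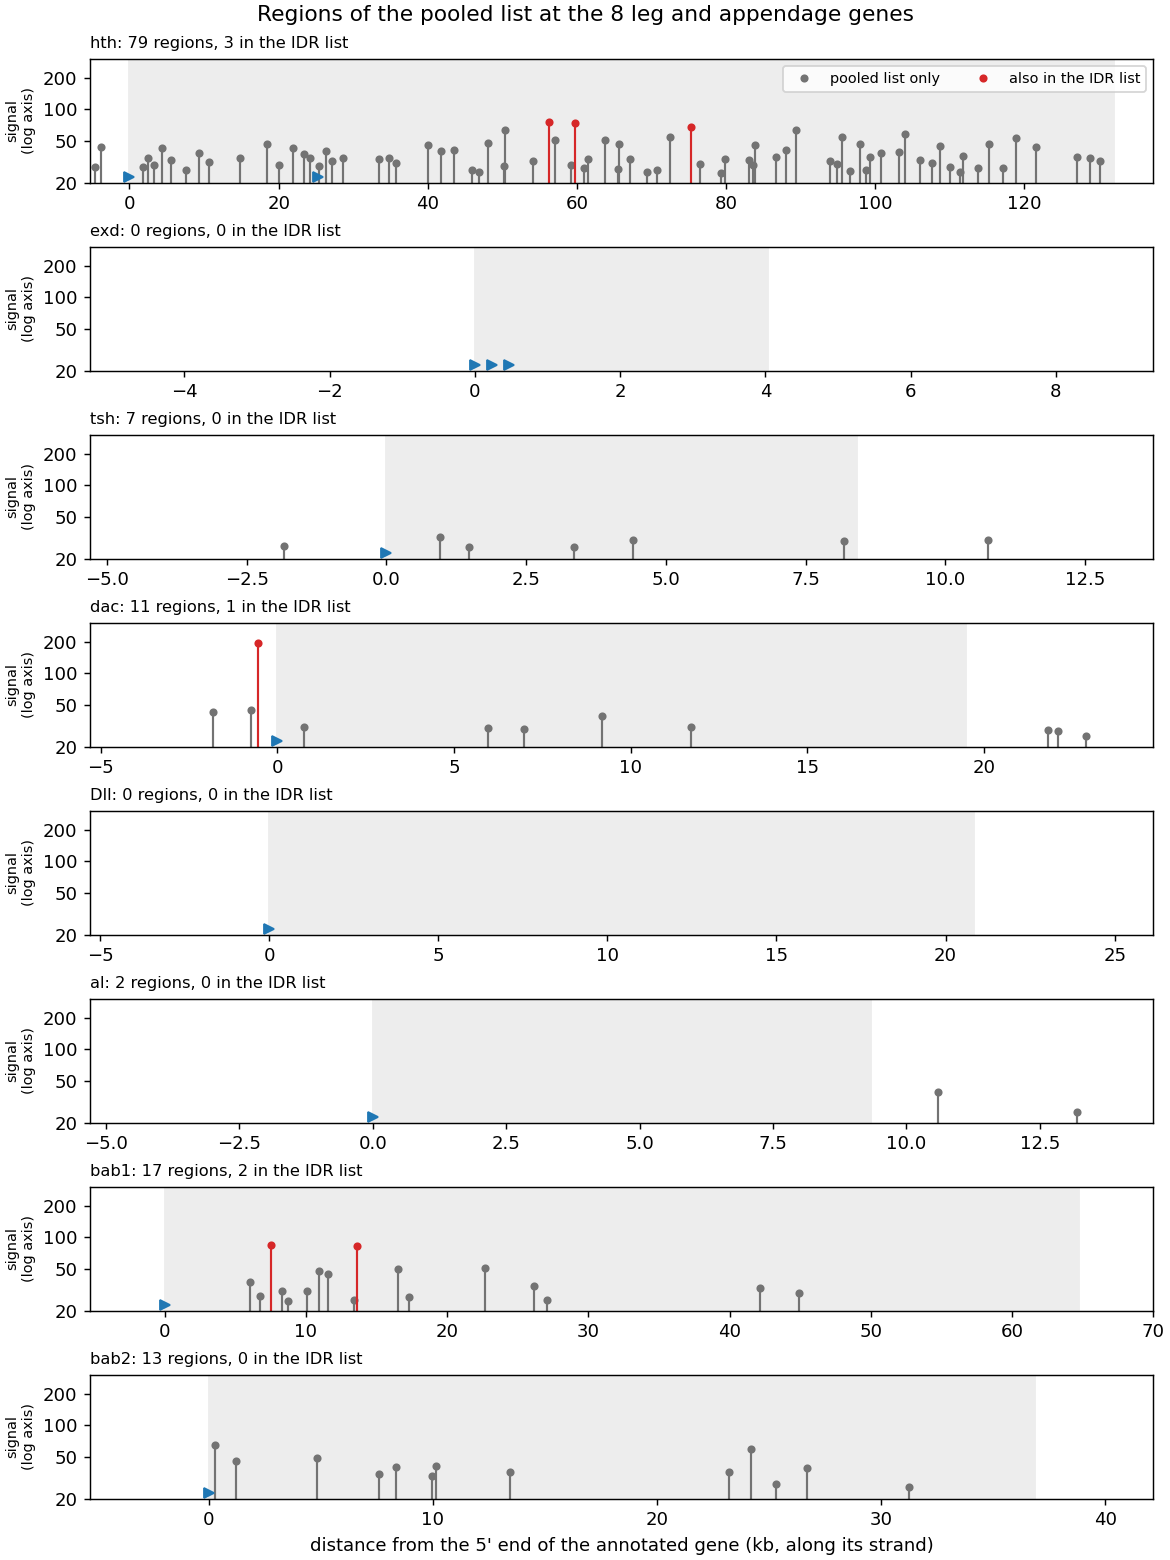
Pooled regions along each of the 8 genes and 5 kb on each side. The x axis gives the distance in kb from the annotated 5′ end along the gene's strand, the y axis the authors' signal on a log axis, grey shading the gene and blue triangles its transcription start sites. The dac IDR peak (195.9) stands far above the other regions, and the hth regions run along the whole gene with signals up to 74.99.

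Having an IDR summit was more frequent among longer genes, so the members were read against genes of like length. Of the 8 genes 3 had an IDR summit, against 18.5% of all protein-coding genes. Both genes over 50 kb, hth and bab1, had one, against 52.4% of 307 such genes. Of dac, Dll and bab2, which are 10 to 50 kb long, only dac had one, against 41.6% of 1670 genes. None of exd, tsh and al, each under 10 kb, had one, against 14.4% of 11968 genes. Within 1000 bp of an own transcription start site (TSS), only dac had an IDR summit, and 7.91% of all protein-coding genes had one. In the top of replicate 1 the same 3 genes had a summit (21.1% of all genes), and in the top of replicate 3 these and al did (19.3% of all genes). In the whole pooled list 6 of 8 had a summit, all but Dll and exd, against 50.5% of all genes. Read within a length class, the counts of 2 of 2, 1 of 3 and 0 of 3 rest on too few genes to be placed above or below these shares.

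**Figure D2:**
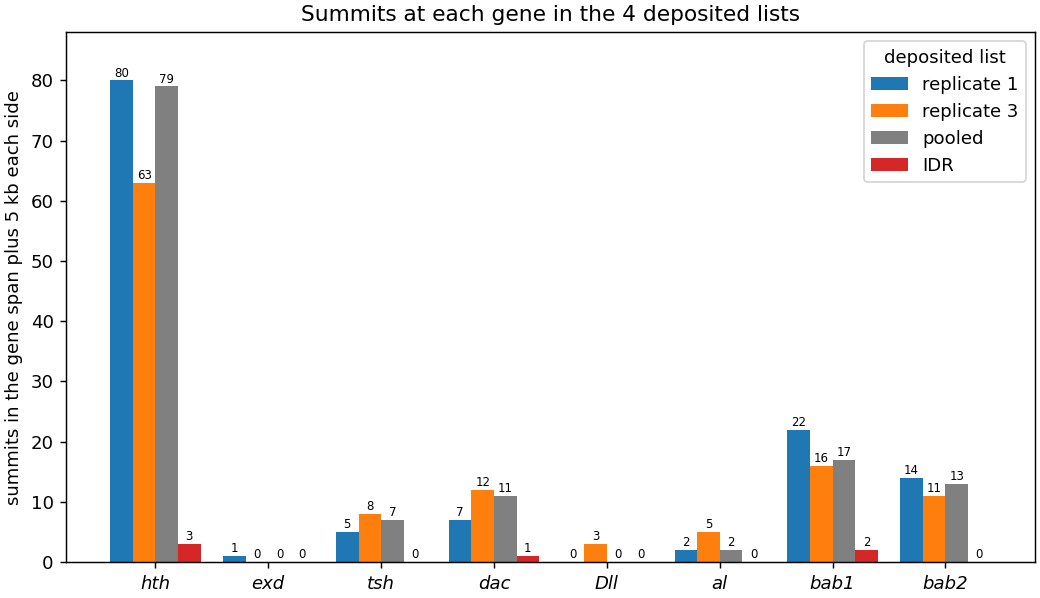
Number of summits (y axis) at each gene (x axis) in the span plus 5 kb on each side, by deposited list. The hth gene holds 79 of the 129 pooled summits, while exd and Dll hold 0 in the pooled list.

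Of the proximal genes, hth was covered by regions along its whole length. It lies on 3R from 10507561 to 10639568 on the minus strand (FBgn0001235, 132.0 kb), with 4 transcripts starting at 10614276 and 1 at 10639568. It held 79 pooled regions, 80 of replicate 1 and 63 of replicate 3, that is 5.56, 5.63 and 4.44 per 10 kb of its window. Protein-coding genes of over 50 kb had a median of 2.62, 2.51 and 2.72 per 10 kb in those lists. Denser than hth were 10.7% of these genes in the pooled list, 10.4% in replicate 1 and 21.2% in replicate 3, so that hth was in the upper part of its class in both replicates, yet not at its top. The number of pooled regions per 10-kb bin ran from 3 to 8 with a median of 6 over 14 bins. In replicate 1 it ran from 2 to 11 and in replicate 3 from 2 to 8. The fullest bin of replicate 1, which starts 105 kb from the 5′ end, was the emptiest of replicate 3, and the fullest of replicate 3 was at 55 to 65 kb from it. The median gap between neighbouring pooled summits was 1408 bp and the largest 5561 bp. Of the 79 pooled summits 68 were intronic, 7 lay in UTRs, 2 in coding sequence and 2 upstream of the gene.

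**Figure D3:**
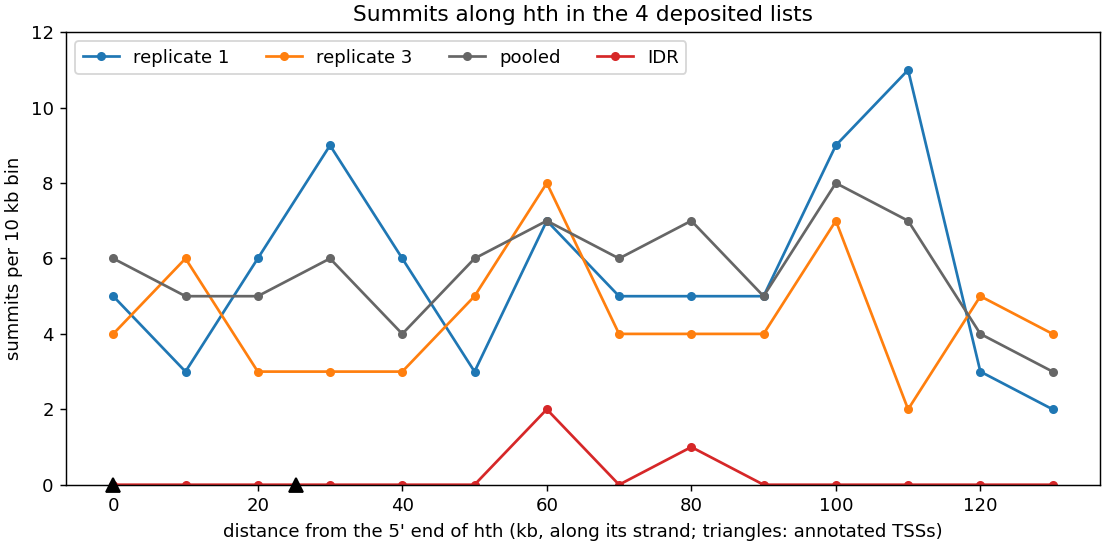
Summits per 10-kb bin (y axis) along hth, by distance in kb from its 5′ end (x axis), in the 4 lists. Each list has regions along the gene, but the bins that are fullest in replicate 1 and in replicate 3 differ, and IDR summits fall only in the bins from 55 to 65 kb (2) and from 75 to 85 kb (1).

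The hth regions in the IDR list were among its weaker ones. The strongest IDR peak of hth, from 10583167 to 10583570 with its summit at 10583369, had a signal of 74.99 and rank 1852 of the IDR list. It ranked 1981 in replicate 1 and 2505 in replicate 3, in the top of both. Its summit lies 30907 bp from the nearest hth TSS in the 3′ UTR of a shorter hth transcript, inside intron 6 (of 13, 23.7 kb long) of the longest one. A second peak, 3.53 kb away with its summit at 10579838, had a signal of 73.35 and rank 1954. It ranked 2238 in replicate 1 and 3092 in replicate 3, outside the top of replicate 3. The other IDR peak, 15.5 kb further on with its summit at 10564305, had a signal of 68.13 and rank 2321, close to the lowest signal of the list (65.16). It ranked 4261 in replicate 1 and 2831 in replicate 3, in the top of neither. All 3 lie in the span of the same intron 6, at 30907 to 49971 bp from the nearest TSS. A further 8 of the 11 member regions next below the IDR list (down to rank 5182) were also in hth, with signals from 51.32 to 63.91. In all, 3 of 79 pooled regions of hth were IDR peaks (3.80%, 95% Clopper-Pearson interval 0.79 to 10.7), against 8.58% of the pooled regions outside the 8 genes, a share that lies inside this interval. A region in both replicates was overlapped by 35 of 79 (44.3%, 33.1 to 55.9). These intervals, and those that follow, cover counting error only and treat neighbouring regions as independent, which they are not. The top of replicate 3 also held regions of hth that were weak or missing elsewhere. A summit at 10591384 ranked 1961 there with no overlapping region in replicate 1, and one at 10524272 ranked 2534 there and 18995 in replicate 1. The latter lay slightly nearer to a TSS of Cyp12e1 (89483 bp) than to one of hth (90004 bp).

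At exd, the gene of the partner that Hth brings into the nucleus, hardly any signal was listed. The gene is short (FBgn0000611, X, 15992468 to 15996509, plus strand, 4.04 kb, 3 TSSs). The one region found was in replicate 1, 171 bp upstream of a TSS with its summit at 15992297, a signal of 20.18 and rank 17661. Replicate 3 and the pooled list had none. Of genes under 10 kb, 55.3% had no pooled region either. The nearest IDR summit was 93.9 kb away, nearest to Tob.

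At tsh (FBgn0003866, 2L, 21828593 to 21837011, plus strand, 8.42 kb) there were several regions, none of them in the top of a replicate or in the IDR list. It held 7 pooled regions, 5 in replicate 1 and 8 in replicate 3, or 3.80, 2.71 and 4.34 per 10 kb. Of genes under 10 kb, 16.7%, 26.6% and 13.4% were denser in those lists. The pooled regions were low in rank. The strongest pooled region of tsh had a signal of 32.0 and rank 17878, with its summit at 21829546 in the 5′ UTR, 953 bp from the TSS. It ranked 17915 in replicate 1 and 18172 in replicate 3. The best rank at tsh was 6250 in replicate 1, at 21832171 in the intron, and 7317 in replicate 3, at 21839393 downstream of the gene, so the replicates put their strongest regions in different places. Only 2 of 7 pooled regions overlapped a region in both replicates. The nearest IDR summit lay 33.6 kb upstream, 490 bp from the TSS of CG31612.

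The medial gene dac carried the strongest peak of the 8 genes, the one whose window is printed first. The gene lies on 2L from 16466512 to 16485998 on the minus strand (FBgn0005677, 19.5 kb), and its 6 annotated transcripts share 1 TSS. The peak, from 16486345 to 16486748 with its summit at 16486547, lies between genes, 549 bp upstream of that TSS. It had a signal of 195.9 and rank 271 in the IDR list. The replicates placed it alike: rank 370 in replicate 1 (signal 113.6, summit 3 bp away) and rank 186 in replicate 3 (signal 95.07, summit 30 bp away). The quartiles of signal of the IDR peaks elsewhere on the 6 main chromosome arms were 73.44 and 125.3. The divergent neighbour Nepl8 starts 2150 bp from the dac TSS and 1601 bp from the summit, on the other side. A pooled region 755 bp upstream of dac, with signal 44.74, overlapped the same regions of the replicates. It also overlapped a second, weaker region in each, 747 bp upstream in replicate 1 (rank 6005) and 718 bp upstream in replicate 3 (rank 13498). Another pooled region, at 1830 bp with signal 42.76, lay nearer to the TSS of Nepl8 (320 bp). It overlapped a region of replicate 3 (rank 4882) but none of replicate 1. Within the gene, 5 pooled regions were intronic, with signals from 29.66 to 38.96. Replicate 1 had 7 regions at dac and replicate 3 had 12, and 4 of 11 pooled regions overlapped both. With 10 kb on each side, dac gained 3 IDR summits 5283, 6750 and 9342 bp upstream. Their signals were 78.92, 84.27 and 133.9, and each lay nearer to a TSS of Tpr2, at 259, 1208 and 1429 bp. The summit at 5283 bp ranked 3051 in replicate 1 and 842 in replicate 3. The one at 6750 bp ranked 976 in replicate 1 and 11351 in replicate 3. The strongest, at 9342 bp, ranked 813 in replicate 1 and 622 in replicate 3, in the top of both.

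At Dll, which specifies the distal limb, no region was listed in replicate 1 or in the pooled list. It lies on 2R from 24814822 to 24835667 on the plus strand (FBgn0000157, 20.8 kb, 1 TSS). Genes of 10 to 50 kb with no region made up 16.6% in the pooled list and 14.1% in replicate 1. Replicate 3 held 3 regions. The strongest, with its summit at 24836826 downstream of the gene, had a signal of 27.95 and rank 4140. One in an intron, 7772 bp from the TSS, had a signal of 24.98 and rank 6079. One in UTR sequence near the 3′ end had a signal of 22.87 and rank 8122. The downstream and UTR summits lay 12168 and 14133 bp from a TSS of CG3650, nearer than to that of Dll (22004 and 20039 bp). None overlapped a pooled region. The nearest IDR summit lay 172.0 kb downstream, nearest to zip. The replicates thus differed on whether Dll held any region at all, and since a list is cut at about 30000 regions, a region not listed may still have signal below that level.

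At al, a gene of the limb tip (FBgn0000061, 2L, 378112 to 387439, plus strand, 9.33 kb), the replicates also differed. Replicate 3 held 5 regions. The strongest, from 382736 to 383131 with its summit at 382934 in an intron 4822 bp from the TSS, had a signal of 41.87 and rank 1238. It overlapped no region of replicate 1 and none of the pooled list. Of 2569 regions in the top of replicate 3 on the main arms, 97 (3.78%, interval 3.07 to 4.59) were likewise missing from both other lists. Another intronic region, 770 bp from the TSS, ranked 3896 in replicate 3 and also overlapped no pooled region. Replicate 1 had 2 regions, both downstream, the better at rank 20288. The 2 pooled regions were downstream too, with signals of 39.11 and 25.26. Only the first, at 388699, overlapped both replicates, at rank 20874 in replicate 1 and 24418 in replicate 3. No region in the pooled list or in replicate 1 lay inside al. The nearest IDR summit, 42.8 kb away, was 948 bp from a TSS of ex.

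The paired tarsal genes bab1 and bab2 lie next to each other on 3L on the minus strand, bab1 from 1036369 to 1101089 (FBgn0004870, 64.7 kb) and bab2 from 1140429 to 1177276 (FBgn0025525, 36.8 kb). The regions of bab1 were all intronic in all 3 lists, 17 pooled, 22 in replicate 1 and 16 in replicate 3. Its density of 2.28, 2.94 and 2.14 per 10 kb was near the middle of its length class, with 57.7%, 41.0% and 63.5% of genes denser. Its 2 IDR peaks lie 6.09 kb apart in the first intron (58.7 kb). The stronger, with its summit at 1093579, is 7510 bp from the TSS and had a signal of 84.29 and rank 1452. It ranked 1594 in replicate 1 and 3461 in replicate 3, in the top of replicate 1 only. The other, with its summit at 1087489, is 13600 bp from the TSS and had a signal of 82.07 and rank 1519. It ranked 2299 in replicate 1 and 1889 in replicate 3, in the top of both, and replicate 3 placed its summit at the same base. In replicate 3 a region at 1097103, 3986 bp from the TSS, ranked 2371 but overlapped nothing in replicate 1 or the pooled list.

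The bab2 gene fell just short of the IDR list. Its strongest pooled region had a signal of 64.47 and rank 2654, against the lowest IDR signal of 65.16. The summit, at 1176982, lies in the 5′ UTR 294 bp from the TSS, and overlapped regions at rank 5847 in replicate 1 and 4799 in replicate 3. The best rank at bab2 was 4350 in replicate 1 and 3279 in replicate 3, and both those regions overlap the pooled region at 1168928, 8348 bp from the TSS. In all bab2 held 13 pooled regions, 14 in replicate 1 and 11 in replicate 3, and 8 of the 13 overlapped both replicates. The absence of bab2 from the IDR list thus rests on a small step in pooled signal. Both bab1 peaks (84.29 and 82.07) lie further from the lowest IDR signal, yet below the median of the IDR list (89.52). An IDR peak between the genes, at 1129728 with signal 83.85 and rank 1467, lay 10.7 kb beyond the 3′ end of bab2 and 28639 bp from the bab1 TSS, outside both windows.

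**Figure D4:**
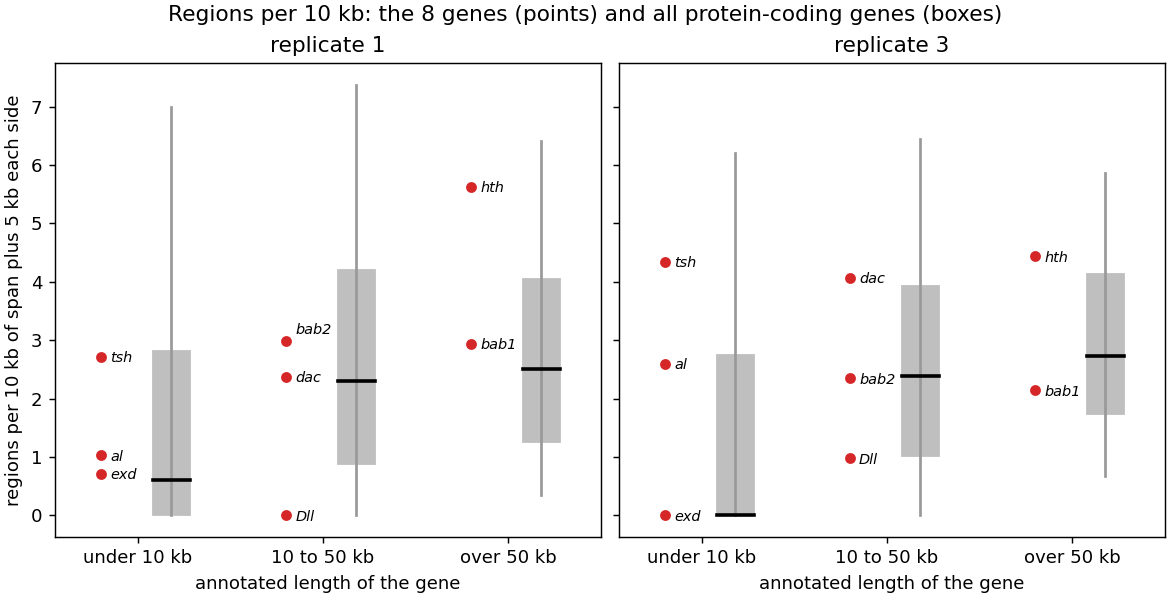
Regions per 10 kb of span plus 5 kb on each side (y axis) in replicate 1 and replicate 3, by annotated gene length (x axis). Red points are the 8 genes, grey boxes the quartiles of all protein-coding genes of that length with the median as a bar, and thin lines run from the 5th to the 95th percentile. The hth point is above the upper quartile in both replicates, and the tsh, al, dac and Dll points are higher in replicate 3 than in replicate 1.

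Over the 8 genes the IDR summits were about as dense as on the arms at large, while weaker regions were denser with hth and about as dense without it. There were 0.160 IDR summits per 10 kb at the 8 genes, against 0.192 over the 133.9 Mb of the main arms. This order depended on the margin, since the 8 genes had 0.192 with 1 kb on each side and 0.197 with 10 kb. The summits gained with 10 kb all lay upstream of dac and nearer to a TSS of Tpr2. In the tops of the replicates there were 0.133 in replicate 1 and 0.186 in replicate 3, both against 0.192. Pooled regions numbered 3.43 per 10 kb at the 8 genes, against 2.24 on the arms. Without hth the other 7 genes had 2.14. The same held in each replicate, with 3.49 and 2.18 without hth in replicate 1, and 3.14 and 2.35 without hth in replicate 3. Related gene sets, listed further on, had 3.33 pooled regions per 10 kb (25 other leg genes), 3.09 (10 wing genes), 2.70 (10 antenna and eye genes) and 2.08 (8 signalling genes). Summed over all protein-coding genes there were 1.54 at those under 10 kb, 2.74 at those of 10 to 50 kb and 2.61 at those over 50 kb.

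The peaks at these genes were mostly intronic and far from a TSS. Of the 6 IDR summits 4 were in an intron (66.7%, 22.3 to 95.7), against 53.7% of the 2561 other IDR summits on the arms. None lay within 500 bp of an own TSS, which allows a share of up to 45.9%, and 32.8% of the other summits were as near to the TSS of some protein-coding gene. The median distance was 22254 bp, against 1504 bp. The hth gene, at 132.0 kb, gave 3 of these distances, and without it the other 3 summits had a median of 7510 bp (549 to 13600 bp), a comparison added after the values were seen. Among pooled regions, 106 of 129 at the 8 genes were intronic (82.2%, 74.5 to 88.3), against 56.3% elsewhere. Within 500 bp of a TSS lay 2 of 129 (1.55%, 0.188 to 5.49), against 13.4% elsewhere. Of the 106 intronic pooled regions 68 were in hth. For the 8 genes the distance is to an own TSS and for other regions to any protein-coding TSS. The windows are gene spans plus 5 kb on each side, while the other regions lie anywhere on the arms. A high intronic share and few summits near a TSS therefore cannot be told apart from the choice of windows. The median IDR signal was 78.53 at the 8 genes and 89.29 elsewhere, and the median pooled signal was 33.96 at the 8 genes and 34.33 elsewhere, so apart from dac these were ordinary to weak peaks.

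Agreement of the replicates at these genes was close to that elsewhere, apart from a larger share of pooled regions that overlapped replicate 1 alone. All 6 IDR peaks overlapped a region in both replicates (interval 54.1 to 100), and 95.7% of the other IDR peaks did. Both overlapping regions were in the top of their list for 3 of the 6 peaks, the dac peak, the hth peak at 10583369 and the bab1 peak at 1087489 (interval 11.8 to 88.2%), and for 50.4% of the others. Of the 129 pooled regions 59 overlapped both replicates (45.7%, 36.9 to 54.7), against 51.5% elsewhere. Replicate 1 alone was overlapped by 41 (31.8%, 23.9 to 40.6), against 23.1% elsewhere. Most of these 41 lay in hth, which holds 79 of the 129 pooled regions. The larger share may therefore not hold for the other genes. Replicate 3 alone was overlapped by 24 (18.6%), against 20.1% elsewhere.

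**Figure D5:**
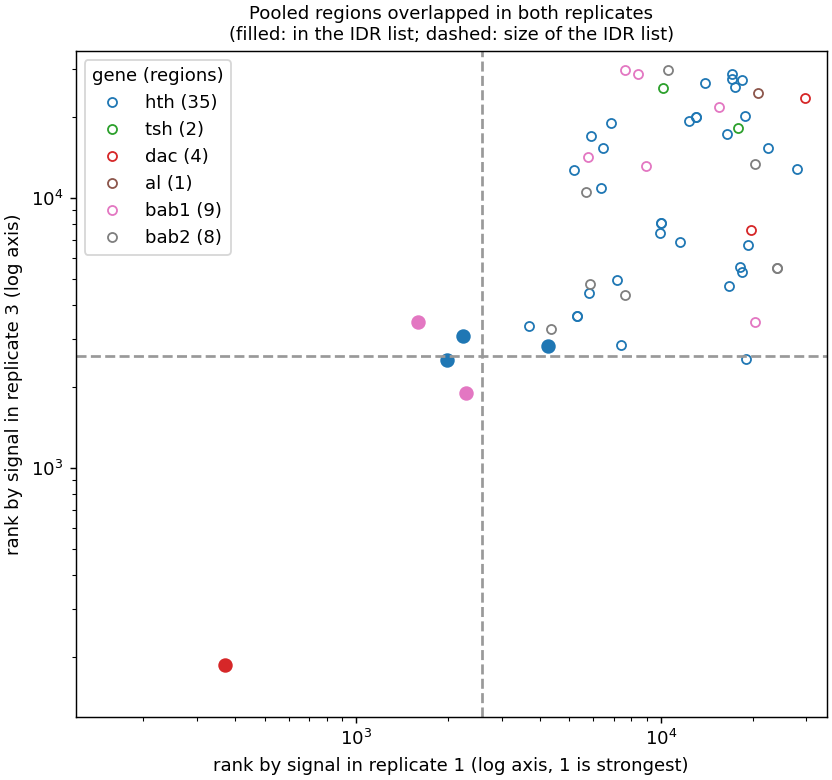
Rank by signal in replicate 1 (x axis) and replicate 3 (y axis), both on log axes, of the 59 pooled regions at the 8 genes that overlap a region in both replicates. Filled points are the 6 IDR peaks and dashed lines mark rank 2591. Each pooled region takes the rank of the strongest region that it overlaps. The dac peak and a weaker dac region that overlaps the same replicate regions both fall at ranks 370 and 186, apart from the rest. Most other points lie beyond the lines in both replicates.

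No motif was found in all of the 6 IDR windows. The 9 motifs were searched on both strands up to 100 bases on each side of each IDR summit. The homeodomain core TAATTA was in 2 of 6 windows (hth at 10583369 and bab1 at 1093579), against 15.7% of the other IDR windows. The Exd and Hox composite TGATNNAT was in 1 of 6 (bab1 at 1087489, with 2 copies), against 13.6%. GAGAGAG was in 1 of 6 (dac), against 4.57%. No window held the Hth site TGACAG (5.70% of other windows), the nuclear receptor hexamer AGGTCA (3.59%), the juvenile hormone receptor site CACGCG (3.75%), TATCGATA (2.46%), the GATA site TGATAAG (4.88%) or the forkhead core TGTTTAC (6.79%). In the 129 pooled windows TGATNNAT was found in 17.8%, against 17.1% elsewhere, TGACAG in 7.75%, against 6.60%, and AGGTCA in 4.65%, against 4.09%. TAATTA was found in 14.0% of them, against 19.2% elsewhere. The GC content of the 6 IDR windows ran from 28.4% to 46.8% with a median of 38.6%, and the median of the other IDR windows was 34.8%.

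Other genes of limb patterning were listed for context. Of 25 other leg genes 8 had an IDR summit (32.0%, median length 12.8 kb), against 18.5% of all protein-coding genes and 41.6% of those 10 to 50 kb long. The count depended on the margin, with 3 for the gene span alone and 12 with 10 kb on each side. The strongest were at bowl (signal 321.6, 6 summits), a zinc finger gene of the leg joints, at elB (183.6), a zinc finger gene of appendage development, at C15 (173.5), whose homeodomain product works with Al at the tip, and at drm (148.1), a relative of bowl. The other lists, of few genes each, are to be read against the same shares. Of 10 genes of the antenna and eye 1 had one, the Pax6 gene ey (78.58). Of 10 wing genes 3 had one: fng (119.1), which modifies Notch, sd (70.03), the partner of Yorkie, and nub (66.25), a POU factor gene that also counts among the leg genes. Of 8 signalling genes 3 had one: the BMP ligand gene dpp (135.1), the receptor gene N (93.77) and the receptor gene Egfr (82.95). Against these, the dac peak (195.9) was lower than that of bowl and higher than those of the other genes named. The genes most like hth in summits per 10 kb, over the IDR list and the tops of the 2 replicates and among 306 other genes of over 50 kb, were Mnr (Euclidean distance 0.0392), cpo (0.0580) and bru2 (0.0773). They were chosen by that likeness, so their 2, 2 and 1 IDR summits are no separate result. They had 19, 26 and 25 pooled regions at lengths of 75.9, 99.1 and 53.3 kb, against 79 at the 132.0 kb of hth.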

How the data were processed

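Per the labels, anti-GFP ChIP-seq was done on sonicated chromatin of whole larvae, and per the text records deposited with the lists, each replicate and the pooled alignments were called against 1 control. No source used here names the aligner or the peak caller. The authors deposited narrowPeak lists. The signal values in them are the authors' own, relative to the control, and were used only to rank and describe regions within a list. Depth is unknown. Lists on dm6 were used, and those on dm3 were not.

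The members and lists were chosen with earlier results of these data known. Genes came from Ensembl release 115 (BDGP6.54), and all 8 members matched RefSeq. A summit was assigned to a gene if it fell in the span plus 5 kb on each side, and distances are to the nearest annotated TSS of that gene. Regions of different lists were matched by an overlap of 1 bp or more, and the rank given is that of the strongest overlapping region. Shares carry 95% Clopper-Pearson intervals. The text names the 8 genes, up to 4 genes of each list with the strongest IDR peaks, the 3 genes most like hth, and neighbours with a nearer TSS. The genes nearest to IDR summits outside the windows were added after their values were seen. Counting was tested on simulated lists. The software was matplotlib 3.10.9, pandas 2.3.3, numpy 2.4.6 and scipy 1.17.1 under Python 3.11.15. No hypothesis test was made. The alternatives tried were other margins, the stronger part of the IDR list, each replicate alone, other overlap rules and other motif windows.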

Additional observations from a re-analysis of the deposited data

How the results depend on the processing

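The count of 6 IDR summits at 3 genes lay between 5 and 9 at 2 to 3 genes with margins of 0 to 10 kb. The gene lost with the gene span alone was dac, whose peak lies 549 bp upstream of the gene. With the stronger part of the IDR list 1 summit at 1 gene was left, dac, with 0.0266 per 10 kb, 0.0% in an intron and 100% (1 of 1) in the top of both replicates, since the summits of hth and bab1 were all in the weaker part. The share in both replicates was also 100% when any region of a replicate's list counted, and 16.7% (1 of 6) when the top of a replicate was cut to its stronger part. From 1 replicate alone, summits numbered 5 to 7 at 3 to 4 genes, 0.133 to 0.186 per 10 kb, with 60.0% to 71.4% in an intron and 0.0% within 500 bp of a TSS, and the median signal was 35.41 to 49.07, on the replicates' own scale and not that of the IDR list. The fourth gene was al. The other leg genes with an IDR summit, 8 in the report, were 3 with the gene span alone, 5 with 1 kb on each side, 12 with 10 kb and 4 with the stronger part of the list, and 6 to 9 from 1 replicate alone. Against the arms' 0.192 per 10 kb, the density of 0.160 was 0.169 for the gene span alone, 0.192 with 1 kb and 0.197 with 10 kb on each side, so its order against the arms depended on the margin. The summits gained with 10 kb were those upstream of dac that lay nearer to Tpr2. The intronic share, above that of the other IDR summits in the report, was below it with the stronger part of the list, which left 1 summit. In the narrower motif window GAGAGAG was absent (0.0%) and TAATTA was in 16.7% of windows, in place of 33.3%, while over the whole called interval TGATNNAT was in 33.3%, in place of 16.7%. No paired analysis was possible because there was 1 group and no test. Depth is unknown, so a region missing from a list may lie below its cut-off.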
